A study of Mus musculus with 6 samples.

Results

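The common gamma chain receptors that bind interleukins 2 and 7, with the Jak kinases and Stat5 factors they act through, were examined in ILC2, innate lymphoid cells that make type 2 cytokines, from mouse lung. The members were taken by symbol: Il2ra, Il2rb, Il2rg, Il7r, Jak1, Jak3, Stat5a and Stat5b, 8 of the 23183 genes listed in each library. All 8 were among the 10501 genes tested, those with at least 1 FPKM (fragments scaled to transcript length and to library size) in at least 3 libraries. The cells were primary lung ILC2 of wild-type (WT) mice, cultured for 24 h with IL-2, IL-7 and IL-33 at 10 ng/ml. The DTA-1 group (3 libraries) also received DTA-1, an agonist antibody against GITR, a receptor of the TNF receptor family, and the IgG2b group (3 libraries) an isotype control antibody. Both groups thus received the ligands of the receptors examined here, and no library came from cells kept without them. The sources used here name no strain, sex or age and do not say whether libraries came from separate mice or cultures. The p-values therefore cover only the spread among these 6 samples, part or all of which may be technical.

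Interleukin 2 binds a receptor of an alpha chain (Il2ra, CD25), a beta chain (Il2rb) and the common gamma chain (Il2rg), whereas interleukin 7 binds the Il7r chain paired with the same gamma chain. Jak1 sits on the beta chain or on Il7r and Jak3 on the gamma chain, and after ligand binding the kinases phosphorylate receptor tyrosines. Stat5a and Stat5b dock there, are phosphorylated in turn, and enter the nucleus to switch on target genes. In ILC2 these cytokines sustain survival and growth and act beside interleukin 33.

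The transcripts of the common gamma chain and of both Stat5 genes were higher in every DTA-1 library than in any IgG2b library. Those of the other receptor chains and the kinases overlapped between the groups. The 3 separate genes differed by 1.31 to 1.69-fold, and none of the 8 members passed the threshold of 0.05 on the adjusted p over all genes. Of all tested genes 0.0381% passed, 0.0286% higher and 0.00952% lower with DTA-1 (4 of 10501, 3 higher and 1 lower, or 3 higher and 2 lower when libraries were scaled to equal totals). At an unadjusted limma p under 0.05, 3 members were higher and none lower, against 6.22% and 7.73% of all tested genes. The DTA-1 libraries lay above the IgG2b libraries without overlap for 3 of 8 members, against 11.2% of all tested genes, and below for none, against 10.5% (21.6% in either direction). Il2rg, Stat5a and Stat5b kept this separation under both scalings tried. The median log2 fold change of the 8 members was 0.22, with 6 above 0 and 2 below, where that of all tested genes was 0.014.

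Stat5a and Stat5b are close copies that lie next to each other on chromosome 11. On GRCm38 (mm10), GENCODE places Stat5a at 100859351 to 100885169 on the plus strand and Stat5b at 100780731 to 100850724 on the minus strand, so that the start sites face away from each other across 8627 bases. The coding sequences of their longest protein-coding transcripts were identical at 90.7% of 2346 aligned bases, and the longest identical stretch ran over 324 bases. Of all stretches of 50 bases in the Stat5a transcript, 15.8% also occurred in Stat5b, and 11.8% of those of Stat5b occurred in Stat5a. The length of 50 bases was set here and is not the read length. Reads that lie wholly within shared sequence cannot be assigned to either gene by sequence alone. The sources used here do not say how such reads were divided. The coding bases around the tyrosine that Jak kinases phosphorylate (residue 694 in Stat5a and 699 in Stat5b, its codon in capitals) show how alike the pair is.
Stat5a: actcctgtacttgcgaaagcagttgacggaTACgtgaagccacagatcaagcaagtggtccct
Stat5b: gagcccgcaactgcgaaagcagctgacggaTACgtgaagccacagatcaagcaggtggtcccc
These 63-base stretches differ at 10 positions, 8 of them before the tyrosine codon. Jak1 and Jak3, also members of a gene family, were identical at 55.3% of aligned coding bases and shared no stretch of 50 bases.

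Values of Stat5a were 89.5, 71.1 and 64.5 FPKM in DTA-1 replicates 1, 2 and 3, against 43.6, 38.9 and 48.3 FPKM in IgG2b replicates 1, 2 and 3. Every DTA-1 library lay above every IgG2b library, and the lowest DTA-1 value was 33.4% above the highest IgG2b value. Stat5a averaged 75.03 ± 12.97 FPKM with DTA-1 and 43.6 ± 4.73 FPKM with IgG2b (SD, n = 3 each). The log2 fold change, on the log2(FPKM + 1) scale used throughout, was 0.76 ± 0.15 (SE), a fold of 1.69 with a 95% interval of 1.33 to 2.16. It did not pass the threshold of 0.05 in limma's test over all 10501 genes (adjusted p = 0.101; unadjusted p = 9.4e-04), where it ranked 94 by p. With library quality weights, which give less weight to libraries that stand apart, the log2 fold change was 0.60 and passed (limma adjusted p = 0.0209), where the other alternatives gave adjusted p-values up to 0.283 and none passed.

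Stat5b measured 75.8, 54.3 and 52.4 FPKM in DTA-1 replicates 1, 2 and 3, against 46.9, 43.5 and 43.9 FPKM in IgG2b replicates 1, 2 and 3. The groups again did not overlap, but the gap was narrower, at 11.7%, and DTA-1 replicate 1 stood well above the other DTA-1 libraries. Its mean was 60.83 ± 13.003 FPKM with DTA-1 and 44.7 ± 1.85 FPKM with IgG2b. The log2 fold change of 0.42 ± 0.15 did not pass (limma adjusted p = 0.282; unadjusted p = 0.0271). Without DTA-1 replicate 1 it was 0.25, and that of Stat5a was 0.63.

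Relative to Stat5b in the same library, Stat5a was 1.18, 1.31 and 1.23 times as high in DTA-1 replicates 1, 2 and 3, against 0.931, 0.895 and 1.10 times in IgG2b replicates 1, 2 and 3. Stat5a thus exceeded Stat5b in all 3 DTA-1 libraries and in 1 of 3 IgG2b libraries. A ratio within a library does not depend on how libraries are scaled to each other. The log2 ratio was higher by 0.35 with DTA-1, without overlap (exact permutation test, 2-sided, p = 0.1; adjusted p = 0.2 over the 6 ratios). With 3 against 3 libraries, 0.1 is the smallest p this test can give. DTA-1 replicate 1, the highest library for both genes, had the lowest ratio of its group.

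**Figure D1:**
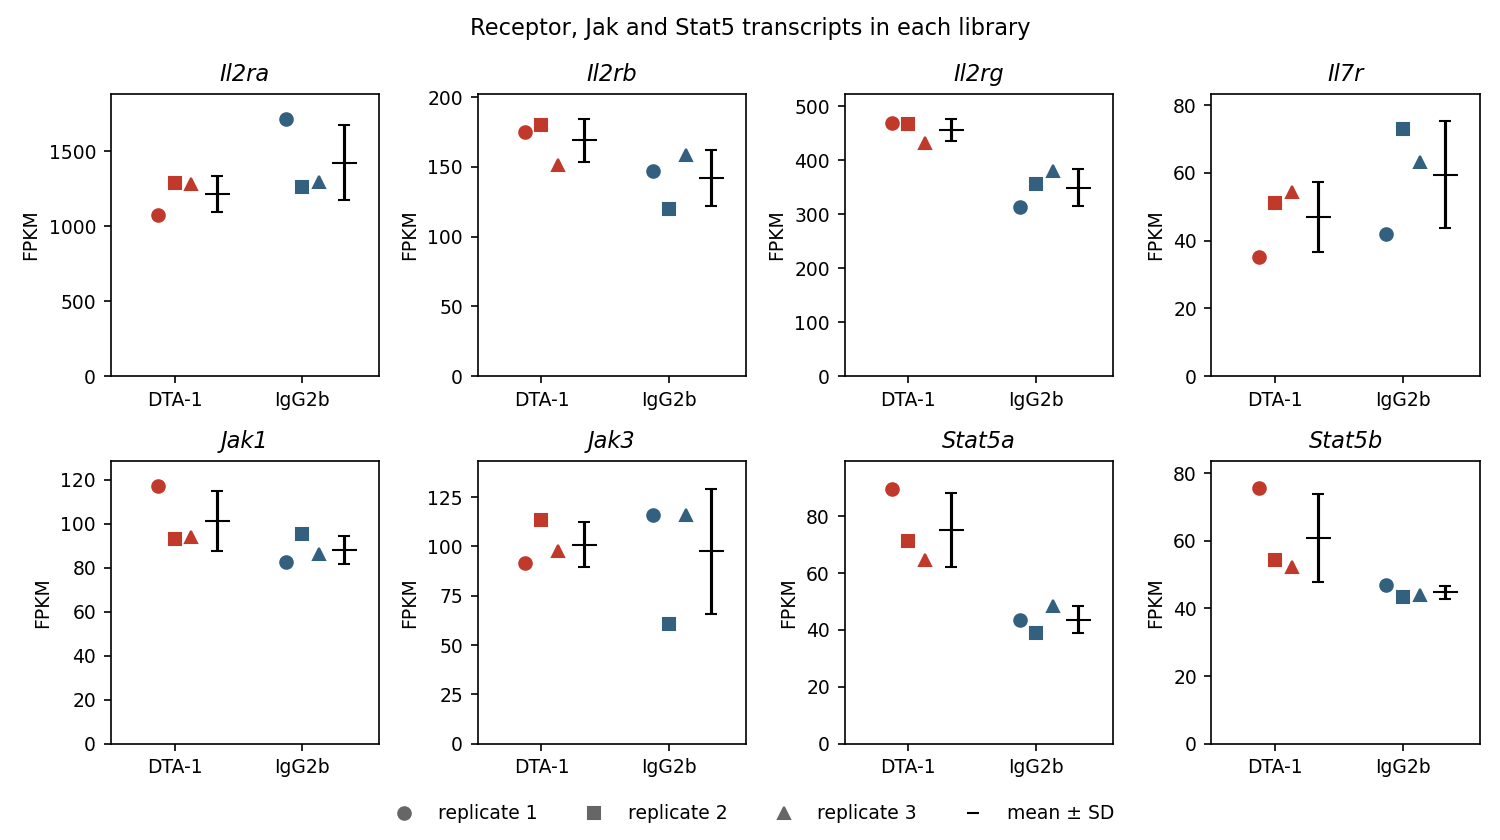
FPKM of the 8 members in each library, DTA-1 (red) left of IgG2b (blue), with 1 panel per gene, 1 symbol per replicate number and the mean ± SD in black. The DTA-1 libraries lie above all IgG2b libraries for Il2rg, Stat5a and Stat5b, and the groups overlap in the other 5 panels.

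Among the 4 receptor chains, the common gamma chain was the one whose groups did not overlap. Il2rg, the common gamma chain of chromosome X (101264378 to 101268255, minus strand), measured 469.5, 467 and 433 FPKM in DTA-1 replicates 1, 2 and 3, against 313, 356 and 380 FPKM in IgG2b replicates 1, 2 and 3. The lowest DTA-1 value was 13.9% above the highest IgG2b value, and the DTA-1 libraries lay close together. Means were 456 ± 20.5 FPKM with DTA-1 and 349.6 ± 33.6 FPKM with IgG2b. The log2 fold change was 0.39 ± 0.11, a fold of 1.31 (95% interval 1.09 to 1.57), and it did not pass (limma adjusted p = 0.188; unadjusted p = 0.00929). GENCODE also places the gene model Gm20489 over the whole of Il2rg on the same strand. Gm20489 is not among the listed genes and extends beyond Il2rg, from 101261405 to 101269023. Reads within the shared stretch may belong to either model, and the exons of the models were not compared.

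Il2ra, the alpha chain that gives the interleukin 2 receptor its high affinity and a known target of Stat5 (chromosome 2, 11642807 to 11693193, plus strand), was the most abundant member. It measured 1075, 1290.4 and 1283 FPKM in DTA-1 replicates 1, 2 and 3, against 1715, 1265 and 1296 FPKM in IgG2b replicates 1, 2 and 3. DTA-1 replicates 2 and 3 and IgG2b replicates 2 and 3 all lay between 1265 and 1296 FPKM, so the means differed through DTA-1 replicate 1 and IgG2b replicate 1. The log2 fold change was -0.22 ± 0.15 (95% interval -0.56 to 0.12; limma adjusted p = 0.577), and without replicate 1 of both groups, left out after the values were seen, it was 0.0065. IgG2b replicate 1 also had the highest summed level of 10 proliferation markers, 1289 FPKM against 901 and 754 FPKM in IgG2b replicates 2 and 3, where the DTA-1 libraries held 488 to 533 FPKM. The part of proliferation in the Il2ra values was not tested.

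Il2rb, the signalling beta chain (chromosome 15, 78479256 to 78495271, minus strand), measured 175, 180.3 and 151 FPKM in DTA-1 replicates 1, 2 and 3, against 147, 119.7 and 159 FPKM in IgG2b replicates 1, 2 and 3. The groups overlapped because DTA-1 replicate 3 lay below IgG2b replicate 3. The log2 fold change was 0.26 ± 0.14 (95% interval -0.065 to 0.58; limma adjusted p = 0.475). The groups did not overlap without DTA-1 replicate 3 or without IgG2b replicate 3, where 16.2% and 17.8% of all tested genes lay above.

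Il7r (chromosome 15, 9505788 to 9530176, minus strand), which T cells lower when their cytokine receptors signal and which also forms the receptor of the alarmin TSLP, was the lowest receptor chain. It measured 35.2, 51.2 and 54.3 FPKM in DTA-1 replicates 1, 2 and 3, against 42.0, 73.0 and 63.2 FPKM in IgG2b replicates 1, 2 and 3. Replicate 1 was the lowest library in both groups, and the groups overlapped through IgG2b replicate 1. The log2 fold change was -0.32 ± 0.23 (95% interval -0.86 to 0.21; limma adjusted p = 0.612). It was -0.55 without IgG2b replicate 1, where the groups no longer overlapped (as for 14.8% of all tested genes in that direction), and -0.13 without DTA-1 replicate 1. Neither fit passed (limma adjusted p = 0.324 and 0.917).

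Ratios between the chains of 1 library separated the groups for Il2ra and Il7r, whose levels did not. Il2ra was 2.29, 2.76 and 2.96 times as high as Il2rg in DTA-1 replicates 1, 2 and 3, against 5.47, 3.56 and 3.41 times in IgG2b replicates 1, 2 and 3. Il7r was 0.0749, 0.1097 and 0.126 times Il2rg in DTA-1 replicates 1, 2 and 3, against 0.134, 0.205 and 0.167 times in IgG2b replicates 1, 2 and 3. Il2ra and Il7r were thus lower relative to the common chain in every DTA-1 library than in any IgG2b library. Il2rg, the divisor of both ratios, itself separated the groups, so the ratios include its difference. Its log2 fold change was 0.39, against -0.22 for Il2ra and -0.32 for Il7r. The differences in log2 ratio, DTA-1 minus IgG2b, were -0.61 and -0.72 (exact permutation test, 2-sided, p = 0.1 and adjusted p = 0.2 each, at the floor of the test). Without IgG2b replicate 1, whose Il2ra to Il2rg ratio was the highest, the first difference was -0.39. Il2rb to Il2rg averaged 0.3695 ± 0.0184 with DTA-1 and 0.408 ± 0.0671 with IgG2b, and Il7r to Il2ra 0.0383 ± 0.00500 with DTA-1 and 0.0437 ± 0.0172 with IgG2b, with overlap for both (exact permutation p = 0.5 and 0.8).

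**Figure D2:**
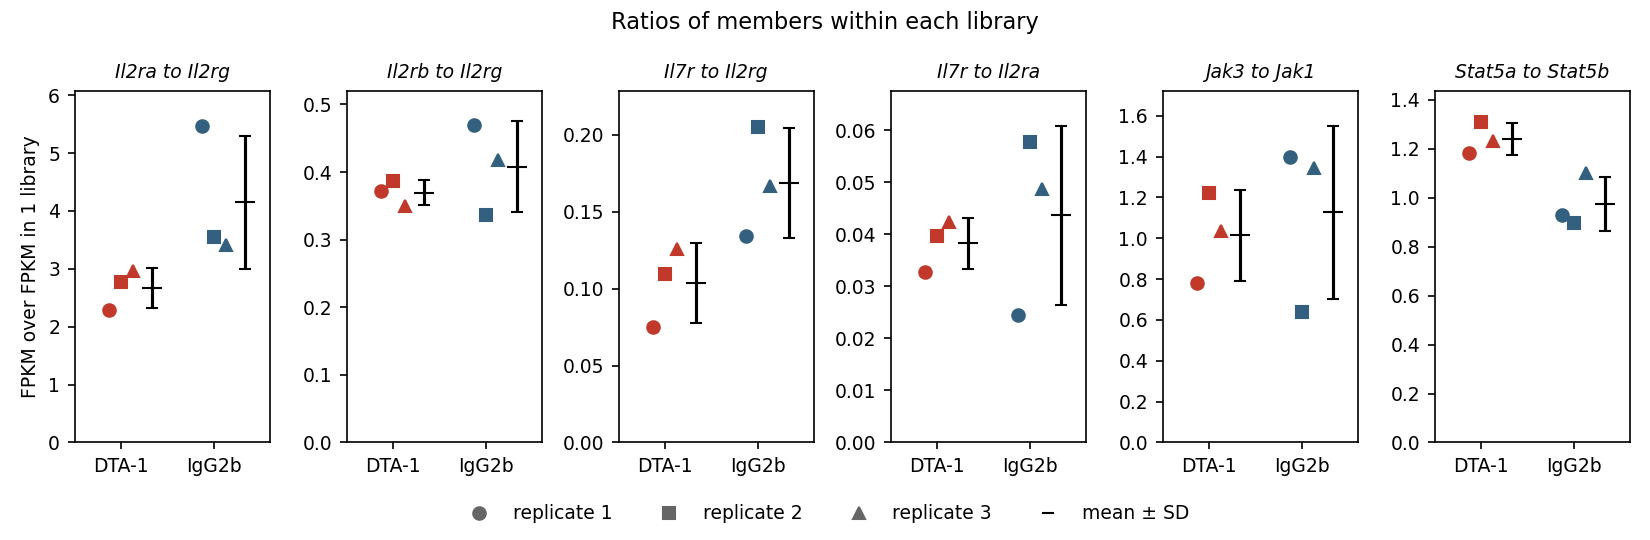
Ratio of 2 members' FPKM within each library, DTA-1 (red) left of IgG2b (blue), with 1 panel per ratio, 1 symbol per replicate number and the mean ± SD in black. Il2ra to Il2rg and Il7r to Il2rg are lower, and Stat5a to Stat5b higher, in all DTA-1 libraries than in all IgG2b libraries, while the other 3 ratios overlap.

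The groups overlapped for both kinase genes. Jak1 (chromosome 4, 101152367 to 101265282, minus strand) measured 117, 92.9 and 93.9 FPKM in DTA-1 replicates 1, 2 and 3, against 82.7, 95.2 and 86.4 FPKM in IgG2b replicates 1, 2 and 3. DTA-1 replicate 1 alone stood outside the range of the IgG2b libraries, and the log2 fold change of 0.19 ± 0.13 (95% interval -0.10 to 0.49; limma adjusted p = 0.571) was 0.086 without it. Jak3 (chromosome 8, 71676296 to 71690575, plus strand) measured 91.6, 113.5 and 97.4 FPKM in DTA-1 replicates 1, 2 and 3, against 115.7, 60.8 and 116.0 FPKM in IgG2b replicates 1, 2 and 3. A single low library, IgG2b replicate 2, set its direction: the log2 fold change was 0.10 ± 0.24 (95% interval -0.46 to 0.66; limma adjusted p = 0.895), and -0.20 without that library. Without it Jak1 lay above and Jak3 and Il2ra below in every DTA-1 library, where 19.1% of all tested genes lay above and 16.0% below, and none of the 3 passed. Insl3 overlaps the last 1362 bases of Jak3 on the same strand, so reads there may belong to either gene. The exons of the 2 genes were not compared. Jak3 to Jak1 averaged 1.01 ± 0.221 with DTA-1 and 1.13 ± 0.424 with IgG2b (exact permutation p = 0.8).

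**Figure D3:**
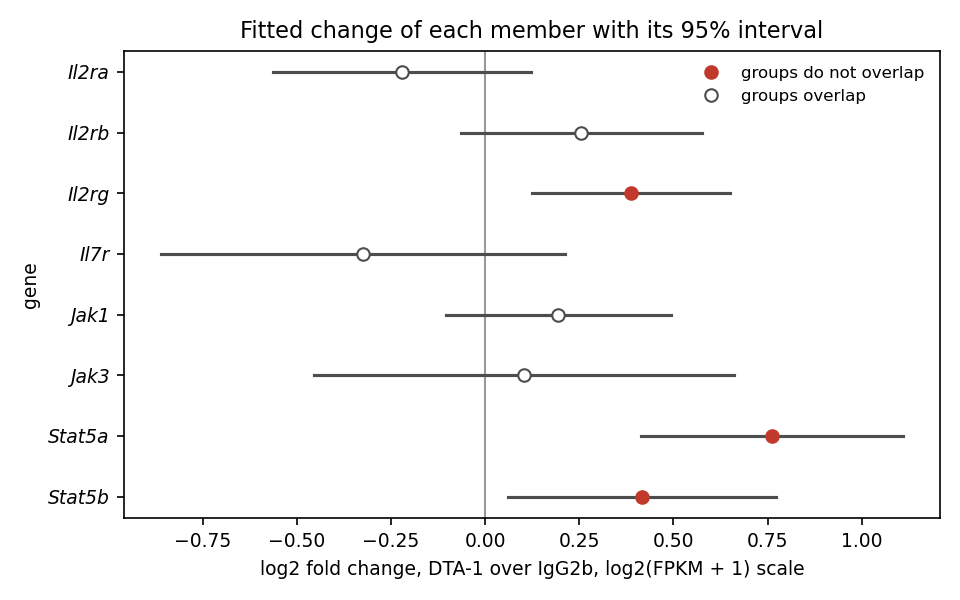
Log2 fold change of each member, DTA-1 over IgG2b, on the log2(FPKM + 1) scale, with lines for the 95% interval of the limma fit and filled points where the groups do not overlap. The intervals of Il2rg, Stat5a and Stat5b lie above 0 before adjustment, and those of the other 5 members include 0.

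Levels per transcript length had a similar order in both groups. With DTA-1 the order was Il2ra, Il2rg, Il2rb, Jak1, Jak3, Stat5a, Stat5b and Il7r, and with IgG2b it was Il2ra, Il2rg, Il2rb, Jak3, Jak1, Il7r, Stat5b and Stat5a. In both groups neighbours in this order did not overlap from Il2ra down to the kinases, but Jak1 and Jak3 overlapped. With DTA-1 both kinases lay above Stat5a in every library. With IgG2b Jak1 lay above Il7r in every library, whereas Jak3 overlapped with Il7r, at 60.8 FPKM in replicate 2 where Il7r had 73.0 FPKM. Stat5a, Stat5b and Il7r were the 3 lowest in both groups, and each overlapped with the next of them. By mean over all libraries Il2ra ranked 84 among the 23183 listed genes, Il2rg 181 and Il2rb 535, whereas Stat5b, the lowest member, ranked 1731.

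Counting error was small beside the spread between libraries. The steps between low values corresponded to 18700000 to 20700000 fragments per library, so that the lowest value of any member, Il7r in DTA-1 replicate 1, rested on about 2500 fragments and a counting error of 2.02%. The spread of Il7r between libraries was 21.95% with DTA-1 and 26.6% with IgG2b (coefficients of variation). Replicate 1 of each group and IgG2b replicate 2 held most of the extremes: DTA-1 replicate 1 was the highest of 6 libraries for 4 members and the lowest for 2, and IgG2b replicate 2 the lowest for 4. All 12 ILC2 marker genes were among the tested genes, with summed levels of 8918 to 10258 FPKM in DTA-1 libraries and 4570 to 6198 FPKM in IgG2b libraries. Most of this sum was Il13, at 5422 ± 720.01 FPKM with DTA-1 and 2326 ± 453 FPKM with IgG2b, and Il5, at 3183 ± 747 FPKM with DTA-1 and 2169 ± 531 FPKM with IgG2b. Of the 12, none passed over all genes. At an unadjusted p under 0.05, 3 were higher and 3 lower, against 6.22% and 7.73% of all tested genes. The lower ones were named after their values were seen, and none overlapped between the groups: Klrg1 averaged 34.1 ± 20.5 FPKM with DTA-1 and 97.2 ± 17.6 FPKM with IgG2b, Il1rl1, the receptor of interleukin 33, 182 ± 9.05 FPKM with DTA-1 and 253 ± 53.2 FPKM with IgG2b, and Arg1 69.3 ± 8.51 FPKM with DTA-1 and 95.2 ± 11.8 FPKM with IgG2b. Of the higher ones, Il13 and Hes1 did not overlap either, whereas Il5 did. Hes1, also named after its values were seen, averaged 16.2 ± 1.03 FPKM with DTA-1 and 8.44 ± 1.58 FPKM with IgG2b. Thus 2 of 12 lay above and 3 below, against 11.2% and 10.5% of all tested genes. The part of the ILC2 markers in the members' values was not tested. Of 55 markers of other cell types, 7 were tested and 8 were listed at 0 in every library, and their summed level was 51.7 to 67.0 FPKM with DTA-1 and 76.4 to 80.4 FPKM with IgG2b. Those at 0 were Pax5 (B cell), Marco, S100a8 and S100a9 (myeloid), Mcpt4 (mast cell), Sftpa1 (epithelium), Vwf (endothelium) and Dcn (fibroblast). The most abundant of each list were Pecam1 at 26.9 ± 10.2 FPKM with DTA-1 and 35.9 ± 6.90 FPKM with IgG2b (endothelium), Kit at 9.60 ± 3.54 with DTA-1 and 13.3 ± 5.25 with IgG2b (mast cell), Cd3g at 8.01 ± 1.04 with DTA-1 and 9.67 ± 0.425 with IgG2b (T cell), and Cd79b, Epcam, Fcer1g, Il22 and Prf1 at means under 5 FPKM in both groups. Of the endothelium and fibroblast markers listed, 7 of 8 stayed under 1 FPKM in every library. So did 5 of 6 for mast cell and basophil and 7 of 9 for T cell. The part of these markers in the results was not tested, and in bulk samples fewer cells of a type and less RNA per cell cannot be told apart.

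Sequence 5′ of RefSeq's start sites was taken from RefSeq (GRCm38.p6), which held windows for 7 of the 8 members, and the 250 bases before each start were searched on both strands. The motifs were TTCNNNGAA (Stat), TGANTCA (AP-1), CCGGAAG (Ets), CACGTG (E-box) and an NF-kB motif of GGG, any 2 bases and TTTCC. Of these windows, those of Il2rg and Il7r held 1 match each, with no overlap between motifs. They are shown because they held a match. The matched letters are in capitals, for Il2rg at chrX:101268256-101268505 and for Il7r, outside GENCODE exons, at chr15:9529877-9530040, both on the minus strand. The Il7r stretch lies within the GENCODE gene model, downstream of the start of that model at 9530176, and the Il2rg window lies within the model of Gm20489.
Il2rg: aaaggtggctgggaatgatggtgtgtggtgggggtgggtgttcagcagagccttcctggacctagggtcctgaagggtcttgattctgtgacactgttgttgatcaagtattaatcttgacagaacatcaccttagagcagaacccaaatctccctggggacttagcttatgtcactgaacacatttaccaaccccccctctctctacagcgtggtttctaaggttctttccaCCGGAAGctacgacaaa
Il7r: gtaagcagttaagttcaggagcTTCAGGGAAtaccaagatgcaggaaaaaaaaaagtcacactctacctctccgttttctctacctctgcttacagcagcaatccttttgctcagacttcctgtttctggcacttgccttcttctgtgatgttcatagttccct
The Ets letters of Il2rg begin 17 bases before RefSeq's start, and 6.91% of 32851 windows of this length held such a match. The Stat letters of Il7r begin 142 bases before RefSeq's start, and 7.02% of windows held one. The windows of Il2ra, Jak1, Jak3, Stat5a and Stat5b (2 windows each for the Stat5 genes) held none of the 5 motifs as written here. Other forms of these motifs, among them other NF-kB forms, were not searched.

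Most other Jak and Stat genes had log2 fold changes above 0, as the Stat5 pair did. Of 7 tested, none passed over all genes, 4 were higher at an unadjusted p under 0.05 and none lower, and the median log2 fold change was 0.48. Of all tested genes 6.22% were higher and 7.73% lower at that p. The DTA-1 libraries lay above the IgG2b libraries for 5 of the 7, against 11.2% of all tested genes. Tyk2, the kinase of interferon and interleukin 12 receptors, measured 36.7, 34.2 and 29.3 FPKM in DTA-1 replicates 1, 2 and 3, against 21.2, 18.6 and 25.0 FPKM in IgG2b replicates 1, 2 and 3 (log2 fold change 0.61 ± 0.14, limma adjusted p = 0.1395). Named after their values were seen, Jak2 averaged 94.6 ± 13.4 FPKM with DTA-1 and 62.4 ± 16.2 FPKM with IgG2b, and Stat6, the factor of interleukins 4 and 13, 41.7 ± 10.98 with DTA-1 and 30.3 ± 2.72 FPKM with IgG2b, both without overlap. Stat4 had groups without overlap too, at 7.33 ± 3.02 with DTA-1 and 4.76 ± 0.723 FPKM with IgG2b, and the groups overlapped for Stat3, whose end overlaps that of Stat5a by 72 bases on the other strand. Without DTA-1 replicate 1 the median of this list was 0.22. With library quality weights Tyk2 and Jak2 passed (limma adjusted p = 0.0444 and 0.0325).

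The 5 other chains tested that pair with the common gamma chain or with Il7r had no separate groups. The list of 6 also held Il13ra1, at 0 FPKM in every library and not tested. None of the 5 had an unadjusted p under 0.05, and their median log2 fold change was -0.017. Il9r, the interleukin 9 receptor, averaged 20.8 ± 2.67 FPKM with DTA-1 and 17.0 ± 2.53 FPKM with IgG2b (0.27 ± 0.15, limma adjusted p = 0.466). Il21r averaged 10.8 ± 2.38 with DTA-1 and 11.5 ± 1.41 FPKM with IgG2b (-0.098 ± 0.18, limma adjusted p = 0.863). Among the ligands, Il2, Il7, Il15, Il21 and Tslp stayed under 1 FPKM in every library and were not tested, among them both gamma chain cytokines added to the cultures. Il4 averaged 10.03 ± 0.508 FPKM with DTA-1 and 11.2 ± 2.80 FPKM with IgG2b, and Il9 measured 8425, 3151 and 2868 FPKM in DTA-1 replicates 1, 2 and 3, against 222, 483 and 529 FPKM in IgG2b replicates 1, 2 and 3. Neither passed (limma adjusted p = 0.8198 and 0.0648), but Il9 did with library quality weights (limma adjusted p = 0.0132). Il9 also passed without replicate 1 of both groups, left out after the values were seen (log2 fold change 2.57, limma adjusted p = 0.00751).

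The listed target genes of Stat5 had log2 fold changes on both sides of 0. Of 14 tested, none passed over all genes. At an unadjusted p under 0.05, 4 were higher and 1 lower, against 6.22% and 7.73% of all tested genes. The median log2 fold change was 0.14, or 0.27 without IgG2b replicate 3 and 0.031 with library quality weights. Without DTA-1 replicate 1 it was 0.084, and without IgG2b replicate 2 also 0.084. Bcl2l1, which encodes the survival protein Bcl-xL, measured 109.8, 111.2 and 99.5 FPKM in DTA-1 replicates 1, 2 and 3, against 43.2, 61.8 and 78.6 FPKM in IgG2b replicates 1, 2 and 3 (0.83 ± 0.20, limma adjusted p = 0.1399). Myc, a growth regulator, averaged 169.8 ± 7.46 FPKM with DTA-1 and 120.2 ± 13.5 FPKM with IgG2b (0.50 ± 0.12, limma adjusted p = 0.1399). Both had groups without overlap, as did 3 genes named after their values were seen. Cish, the feedback inhibitor most tied to Stat5, measured 276, 202 and 161 FPKM in DTA-1 replicates 1, 2 and 3, against 149, 109 and 153 FPKM in IgG2b replicates 1, 2 and 3. The cyclin gene Ccnd2 averaged 308 ± 14.2 FPKM with DTA-1 and 194 ± 41.6 FPKM with IgG2b, and the feedback inhibitor gene Socs3 lay lower, at 24.7 ± 3.29 with DTA-1 and 36.8 ± 8.58 FPKM with IgG2b. Socs1, Socs2, Pim1, Pim2, Bcl2, Mcl1, Ccnd3, Osm and Bcl6 overlapped between the groups. Thus 4 of 14 lay above and 1 below, against 11.2% and 10.5% of all tested genes. With library quality weights Bcl2l1, Myc, Ccnd2 and Socs3 passed (limma adjusted p = 0.0397, 0.0271, 0.0214 and 0.0254). Several of these genes also answer to NF-kB and other pathways, whose part in their values was not tested.

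**Figure D4:**
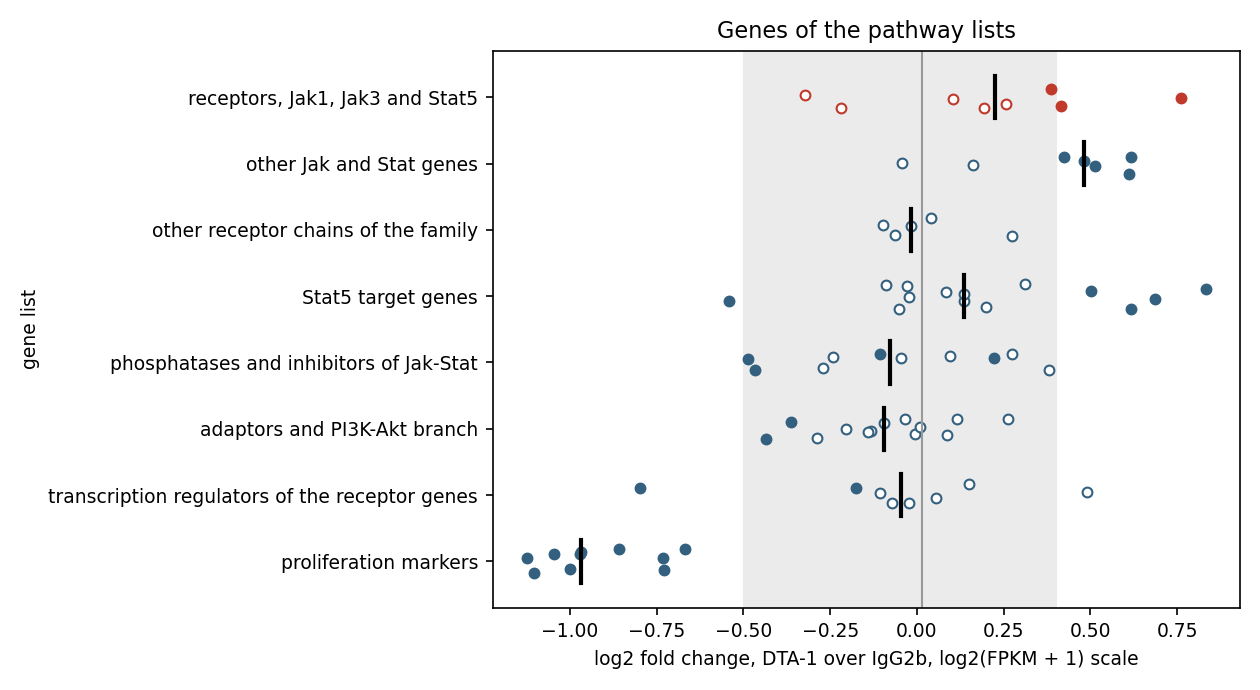
Log2 fold changes, DTA-1 over IgG2b, of the 8 members (red) and of the tested genes of 7 pathway lists (blue), 1 point per gene, filled where the groups do not overlap, with the list median as a black bar. The grey band spans the 5th to the 95th percentile of all tested genes, -0.50 to 0.40, and the points of other Jak and Stat genes lie mostly to its right and those of proliferation markers to its left.

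Phosphatases and inhibitors that restrain the pathway, and the adaptors that branch off it, had medians just under 0. Of 10 phosphatases and inhibitors tested, none passed, none was higher and 2 were lower at an unadjusted p under 0.05, with a median of -0.077. These were Ptpn1, a phosphatase of Jak2 and Tyk2, at 33.9 ± 4.11 FPKM with DTA-1 and 47.2 ± 4.06 FPKM with IgG2b (-0.47 ± 0.13, limma adjusted p = 0.173), and Ptpn2, a phosphatase of Jak1, Jak3 and Stat5, at 50.4 ± 8.13 with DTA-1 and 71.5 ± 15.4 FPKM with IgG2b (-0.49 ± 0.18, limma adjusted p = 0.278). Of 13 adaptor and PI3K-Akt genes, none passed and 2 were lower at an unadjusted p under 0.05, with a median of -0.096. They were the adaptor Grb2, at 88.0 ± 9.54 FPKM with DTA-1 and 114.0 ± 19.8 FPKM with IgG2b, and Sos1, the exchange factor it recruits, at 8.12 ± 1.18 with DTA-1 and 11.3 ± 1.77 FPKM with IgG2b (limma adjusted p = 0.339 and 0.262). Ptpn1, Ptpn2, Grb2 and Sos1 lay lower in every DTA-1 library than in any IgG2b library. Pias1 did so too, whereas Pias3 lay higher. Thus 3 of 10 phosphatases and inhibitors and 2 of 13 adaptor and PI3K-Akt genes lay below, against 10.5% of all tested genes. The 1 above compares with 11.2%. At an unadjusted p under 0.05, 7.73% of all tested genes were lower.

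Of 8 tested transcription regulators of the receptor genes, none passed, and their median log2 fold change was -0.047. At an unadjusted p under 0.05, 1 was lower, against 7.73% of all tested genes. Ets1, a factor of the Ets family, measured 44.0, 51.8 and 53.2 FPKM in DTA-1 replicates 1, 2 and 3, against 101.4, 88.1 and 73.01 FPKM in IgG2b replicates 1, 2 and 3, without overlap (-0.80 ± 0.15, limma adjusted p = 0.0923), and it passed with library quality weights (limma adjusted p = 0.0194). Foxo3 averaged 26.7 ± 5.83 FPKM with DTA-1 and 19.0 ± 5.46 FPKM with IgG2b (limma adjusted p = 0.402), with overlap. All 10 proliferation markers were lower at an unadjusted p under 0.05 and none passed over all genes, with a median of -0.97, Pcna at 180.2 ± 6.07 FPKM with DTA-1 and 301 ± 36.5 FPKM with IgG2b, and Ndc80 at 7.75 ± 0.706 with DTA-1 and 18.6 ± 5.51 FPKM with IgG2b (limma adjusted p = 0.0817 and 0.0947). Both passed with library quality weights (limma adjusted p = 0.0130 and 0.0206). Without IgG2b replicate 1 the median of the list was -0.64. The proliferation markers were included because these cytokine receptors drive growth. All 10 separated the groups in the direction opposite to Stat5a and Stat5b, where 10.5% of all tested genes lay below. At an unadjusted p under 0.05, 7.73% of all tested genes were lower. The part of these markers in the Stat5 values was not tested.

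Across the 6 libraries, the profile of each member was compared with those of 8136 other genes with a mean of at least 5 FPKM by Pearson's r of log2(FPKM + 1), as a description without a test. The closest genes were Gas2l1 and Synj2 for Stat5a (r = 0.9995 and 0.999), Peak1 and Tnfsf8 for Stat5b (0.998 for both), and Nob1 and Crmp1 for Il2rg (0.997 and 0.996). For Il2ra they were Rap1gds1 and Apobec1 (0.993 and 0.988), for Il2rb Pold4 and Alkbh6 (0.989 and 0.987), for Il7r Chmp4b and Mpv17 (0.997 and 0.992), for Jak1 Nrp1 and Cry1 (0.997 and 0.992), and for Jak3 Gatad2a and Mms19 (0.996 and 0.9905). With 6 libraries in 2 groups many genes reach such values: between 18 genes, for Il2ra, and 144 genes, for Stat5a, had an r over 0.95. Among the members, Stat5a and Stat5b (r = 0.917) and Stat5a and Il2rg (0.904) were most alike, and Il2ra and Jak1 least (-0.852). Tnfsf8, closest to Stat5b, measured 226, 66.6 and 61.4 FPKM in DTA-1 replicates 1, 2 and 3, the first far above the rest, against 41.5, 32.96 and 29.6 FPKM in IgG2b replicates 1, 2 and 3.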

How the data were processed

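RNA of 6 samples was made into libraries with a directional kit, per the labels' protocols. Groups and replicate numbers came from the titles, from which the treatment tags of replicates 2 and 3 differ by running antibody numbers. Each sample has a deposited table of symbols and values, read here as FPKM: low values come in steps that shrink with transcript length, as 1 fragment would give. The submitters' processing notes name TopHat and mm10. The program that gave the deposited FPKM, its annotation and its use of strand: not given in the sources used here.

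On log2(FPKM + 1), 10501 genes passed the filter of 1 FPKM in 3 libraries and were fitted by limma 3.58.1 (R 4.3.3; trend and robust moderation; no covariate), with 2-sided p-values adjusted after Benjamini and Hochberg over all of them. Added to low values, the pseudocount of 1 makes their fold changes too small. Ratios within libraries were tested by exact permutation over samples (scipy 1.17.1). Coordinates, lengths (for 95.5% of listed genes) and transcripts came from GENCODE M21 on GRCm38. Fragments per library were estimated from the steps of low values.

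Members and lists were chosen with earlier results of these data known. The text names all members, the 2 genes of smallest p in lists where none passed, the 2 genes most like each member, and the most abundant marker of each other cell type. One gene that this rule names is not reported here. In data simulated for this comparison, with 200 of 10501 genes changed, the fit recovered 37.3% of genes changed 1.5-fold, 93.4% changed 2-fold and 99.1% changed 4-fold. The simulated noise was normal and independent, with the variance that the fit gave each gene. Recovery in the real libraries can be lower, so a gene that did not pass may still have changed. Il9, at a log2 fold change of 3.46, did not pass (limma adjusted p = 0.0648). Alternatives covered the pseudocount, filter, scaling, moderation, library quality weights, a replicate block and leaving out libraries. Figures were drawn with matplotlib 3.10.9.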

Additional observations from a re-analysis of the deposited data

How the results depend on the processing

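Of the 8 members, Stat5a was the one past the threshold in any alternative, with library quality weights (log2 fold change 0.60, limma adjusted p = 0.0209; 1 member past the threshold, against 0). With each library left out in turn, log2 fold changes ranged from 0.63 to 0.86 for Stat5a, 0.31 to 0.45 for Il2rg, 0.25 to 0.51 for Stat5b, 0.14 to 0.34 for Il2rb, 0.086 to 0.25 for Jak1, -0.55 to -0.13 for Il7r, -0.30 to -0.080 for Il2ra and -0.20 to 0.26 for Jak3, which was -0.20 without IgG2b replicate 2. Without replicate 1 of both groups, an alternative chosen after seeing the data, Il2ra was at 0.0065 and Il21r at 0.13. Il21r ranged from -0.20 to 0.081 (without DTA-1 replicate 1) and Il4 from -0.31 to 0.028 (without IgG2b replicate 2) over single libraries left out, and Il4 was at 0.13 with quality weights. The log2 ratio difference of Il7r to Il2ra ranged from -0.48 to 0.14 (0.016 without IgG2b replicate 3), and that of Jak3 to Jak1 from -0.46 to 0.11 (0.084 without DTA-1 replicate 1 and 0.077 without IgG2b replicate 3). Of all genes, 4 passed as reported, 2 with no filter, 475 with quality weights (161 higher, 314 lower), 185 with a replicate block, 7 without replicate 1 of both groups, and 2 to 4 with 1 library left out, the 2 being without DTA-1 replicate 2, DTA-1 replicate 3 or IgG2b replicate 3. Of the pathway list genes, none passed as reported, 17 with quality weights, 8 with the replicate block (the proliferation markers Ccna2, Ccnb1, Hmgb2, Mcm5, Mki67, Ndc80, Pcna and Top2a) and 1, Il9, without replicate 1 of both groups. The log2 ratio differences of Il2ra to Il2rg, Il7r to Il2rg and Stat5a to Stat5b ranged from -0.73 to -0.39, -0.87 to -0.50 and 0.29 to 0.44. The causes were not tested. Deviations of same-numbered libraries from their group means correlated at 0.39, -0.10 and -0.13 over 10501 genes, so the rule for pairing, over 0.1 in every pair, was not met. Whether the libraries of replicate 1 share a batch was not tested. Under the replicate block Stat5a kept 0.76 (limma adjusted p = 0.0501) and no member passed. With 3 libraries per group the spread between libraries, not the fragment number, sets the width of the intervals.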
